A study of Mus musculus with 20 samples.

Results

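The miR-30 family was followed in small RNA libraries of the right ventral hippocampus of mice given cannabidiol (CBD) or vehicle. Its members were all rows of the deposited miRNA expression table named miR-30a to miR-30f, whatever the arm or gene copy, which gave 8 of 281 rows. These were 5 rows of the 5p arm (miR-30a-5p, miR-30b-5p, miR-30c-5p, miR-30d-5p and miR-30e-5p) and 3 rows of the 3p arm (miR-30a-3p, miR-30e-3p and miR-30c-2-3p, the row mmu-mir-30c-2-3p of the table). No row of the table was named miR-30f, and other arms of the family were not analysed here. The 10 CBD mice received 200 mg/kg/day by intraperitoneal injection, given 2 times a day for 5 days, and 10 mice received vehicle on the same schedule. All 20 were male C57BL/6JOlaHsd mice with the genotype label wildtype, described as naïve. The tissue is a mixture of cell types, so fewer cells of a type and less of a miRNA per cell cannot be told apart.

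MicroRNAs are cut from a hairpin precursor, and either arm of the stem can be kept. The arm loaded into an Argonaute protein, the guide, directs repression of messenger RNAs that match its seed, while the opposite arm, the passenger, is mostly degraded. The miR-30 family is found across many tissues, brain included. In mammalian cells miR-30a-5p is known to repress Beclin 1, a protein of autophagy, and it has been described as a repressor of the growth factor Bdnf.

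The mature sequences below, from RefSeq on GRCm38.p6, are shown because the seed sorts the rows into groups and because near-identical rows may share reads. They are written 5′ to 3′, with the seed (bases 2 to 8) in capitals. A sequence was matched for 6 of the 8 rows; miR-30b-5p and miR-30d-5p are named only.
miR-30a-5p: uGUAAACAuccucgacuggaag
miR-30c-5p: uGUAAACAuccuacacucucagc
miR-30e-5p: uGUAAACAuccuugacuggaag
miR-384-5p: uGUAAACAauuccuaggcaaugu
miR-30a-3p: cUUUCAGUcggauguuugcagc
miR-30e-3p: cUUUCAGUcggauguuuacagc
miR-30c-2-3p: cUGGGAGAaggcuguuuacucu

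The 3 matched 5p members had the seed GUAAACA, and so did 1 row outside the family, miR-384-5p, among the 247 rows of the table that were matched to a mature sequence. The 3p rows had other seeds. That of miR-30a-3p and miR-30e-3p was UUUCAGU, and that of miR-30c-2-3p was UGGGAGA, which no other matched row had. Between miR-30a-5p and miR-30e-5p there was 1 mismatch in 22 bases, and there was also 1 between miR-30a-3p and miR-30e-3p. No source used here gives how reads that fit both were counted, so the split within each of these pairs is uncertain. By contrast, miR-30c-2-3p had 9 mismatches to miR-30e-3p and 10 to miR-30a-3p. It was closer to miR-30c-1-3p, which has the same seed and no row, with 3 mismatches in 22 bases. How reads close to both were counted is likewise not given.

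The hairpins lie in 3 neighbourhoods of the genome (GRCm38, GENCODE M21). Mir30a (chromosome 1, 23272269 to 23272339, plus strand) overlapped no other annotated gene, and Mir30c-2 (chromosome 1, 23291701 to 23291784, plus strand), 19361 bases further on, lay in an exon of the lincRNA Gm27028. Mir30c-1 (chromosome 4, 120769534 to 120769622) and Mir30e (120772606 to 120772697), 2983 bases apart on the minus strand, lay in introns of Nfyc, which encodes a subunit of the transcription factor NF-Y. On chromosome 15, Mir30b (68337415 to 68337510) and Mir30d (68341208 to 68341289) were 3697 bases apart on the minus strand, each in exons of noncoding transcripts. The mature miR-30c-5p is the same from Mir30c-1 and Mir30c-2, so its row cannot be divided between these genes, while miR-30c-2-3p comes from Mir30c-2 only.

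Levels are the authors' log2 reads per 1000000 (RPM) of an effective library size. The listed library sizes ran from 326559 to 1245429 reads with CBD and from 242178 to 1169139 with vehicle. The libraries carry a run number from 1 to 4, with 3, 3, 2 and 2 CBD libraries and 2, 3, 2 and 3 vehicle libraries in runs 1 to 4. Neuronal miRNAs were measured in each library, with 6 of 6 listed markers in the table and a summed level of 109041 to 257173 RPM with CBD and 124563 to 175339 with vehicle. CBD replicate 8, of run 3, stood apart within the family. Its 8 rows took 1.83% of the reads of the table, against 3.65% to 8.72% in the other 19 libraries, and its effective library was 0.693 of the listed size, the lowest ratio of the 20. Results that rest on it are given with and without it where both were computed.

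The 5p arms were abundant and the 3p arms scarce in both groups. The 5 rows of the 5p arm took 5.91% ± 1.93 of the reads of the table with CBD and 5.77% ± 1.37 with vehicle, and the 3 rows of the 3p arm took 0.0397% ± 0.00697 and 0.0353% ± 0.00918 (SD, n = 10 each). The most abundant member was miR-30c-5p, whose level averaged 14.94 ± 0.60 in CBD mice and 14.81 ± 0.37 in vehicle mice (SD, n = 10 each). By mean level over the 20 libraries it was number 5 of the 281 rows, and it held 55.7% ± 6.67 of the 5p reads of the family with CBD and 52.7% ± 3.90 with vehicle. The other 4 guides ranked 21 to 30. Their mean levels were 12.86 ± 0.37 in CBD mice and 12.99 ± 0.33 in vehicle mice for miR-30b-5p, and 12.85 ± 0.61 and 12.65 ± 0.52 for miR-30a-5p (SD, n = 10 each). They were 12.30 ± 0.63 and 12.47 ± 0.37 for miR-30d-5p, and 12.08 ± 0.80 and 12.32 ± 0.53 for miR-30e-5p (SD, n = 10 each). The step from miR-30c-5p down to miR-30b-5p was 1.94 ± 0.31 log2 units and had the same direction in 20 of 20 libraries. Below it the neighbours in the order did not differ beyond their spread. The row with the higher mean was the higher one in 13 libraries for miR-30b-5p over miR-30a-5p, in 13 for miR-30a-5p over miR-30d-5p and in 10 for miR-30d-5p over miR-30e-5p.

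**Figure D1:**
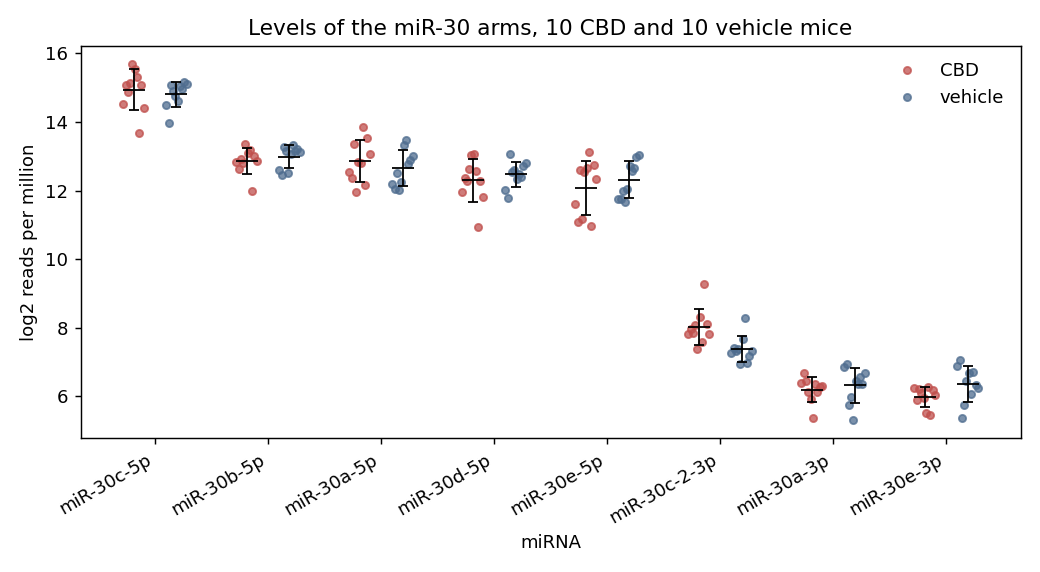
Log2 RPM of the 8 miR-30 rows in each library (points), with the mean and SD of the 10 CBD and the 10 vehicle libraries (black). The 5 rows of the 5p arm lie between 10.94 and 15.70, and the 3 rows of the 3p arm between 5.30 and 9.28.

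Among the 3p arms, miR-30c-2-3p stood above both others in 20 of 20 libraries. Its mean level was 8.01 ± 0.52 in CBD mice and 7.37 ± 0.38 in vehicle mice (SD, n = 10 each), which put it at rank 171 of 281. The levels of miR-30a-3p were 6.19 ± 0.36 with CBD and 6.32 ± 0.51 with vehicle, and those of miR-30e-3p 5.98 ± 0.29 and 6.34 ± 0.52 (SD, n = 10 each), at ranks 262 and 266. These last rows did not differ from each other beyond their spread, with miR-30a-3p the higher in 13 of 20 libraries. Few reads stand behind them. The reads of miR-30a-3p ran from 9 to 121 with CBD and from 7 to 134 with vehicle, and the 7 reads of vehicle replicate 5 have an exact Poisson 95% interval of 2.81 to 14.4 reads. Counting error alone gives an SD of about 0.25 log2 units for miR-30a-3p and for miR-30e-3p and of 0.14 for miR-30c-2-3p, against at most 0.03 for any 5p row. Such intervals cover counting error only, since reads without molecular identifiers are not independent molecules.

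In each hairpin with both arms in the table, the 5p arm exceeded the 3p arm in 20 of 20 libraries. The difference within a library, 5p minus 3p, averaged 7.18 ± 0.83 log2 units for miR-30c-5p over miR-30c-2-3p (SD, n = 20). It averaged 6.50 ± 0.68 for miR-30a and 6.03 ± 0.73 for miR-30e. Since miR-30c-5p also receives reads from Mir30c-1, its difference is not that of a single hairpin. The table held 76 such pairs, with the 5p arm higher on average in 45, and the median size of the difference was 2.50 log2 units. By size the miR-30c, miR-30a and miR-30e pairs were numbers 5, 9 and 11 of the 76. Their SD between libraries, 0.83, 0.68 and 0.73, lay near the median SD of all pairs, 0.74. The pair of miR-384, whose 5p arm has the miR-30 seed, averaged 0.53 ± 0.98 log2 units and had the 5p arm higher in 15 of 20 libraries.

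**Figure D2:**
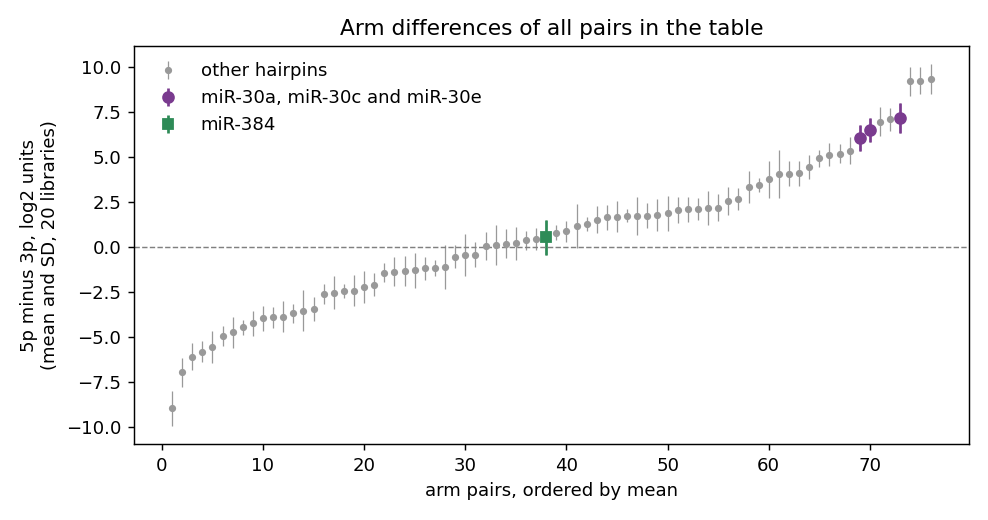
Mean difference 5p minus 3p in log2 units, with the SD over 20 libraries, for the 76 arm pairs of the table in order. The 3 miR-30 pairs lie at 6.03 to 7.18 and the miR-384 pair at 0.53.

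For the question of how CBD affects miRNA levels in naïve animals, no member of the family passed the adjusted threshold. In the limma fit of treatment over all 281 rows, 0 of the 8 members and 0 of all rows (0%) had an adjusted p under 0.05. At an unadjusted p under 0.05 there was 1 member, against 22 of 281 rows (7.83%). With run as a further term there were 2 members, against 42 of 281 rows (14.9%), and again 0 after adjustment (0% of all rows). Of the members, 3 had a positive and 5 a negative difference, with a median of -0.13, beside 108 and 173 and a median of -0.08 over all rows tested. The labels number each sample as a mouse, and p-values treat the 20 as independent.

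The largest difference in the family was that of the passenger arm miR-30c-2-3p. With CBD its level had a lowest value of 7.38, a median of 7.89 and a highest of 9.28, against a lowest of 6.94, a median of 7.32 and a highest of 8.29 with vehicle. The groups overlapped, although 6 of 10 vehicle libraries lay below the lowest CBD library, and each CBD library lay above the vehicle mean. A row with all 10 CBD libraries above the vehicle mean was found 1 time among the 281 (0.356%), and this was it. The fitted log2 difference was 0.64 (SE 0.22, 95% interval 0.19 to 1.08), or 1.56-fold, with an unadjusted p of 0.00682 and a limma adjusted p of 0.470. With the run term it was 0.63 (SE 0.19), with an unadjusted p of 0.00312 and a limma adjusted p of 0.185. That p was the smallest of all rows in the fit with run. In the exact permutation test of the labels within runs, over 12000 relabellings, the p was 0.00458 and the adjusted p over all rows 0.217. Neither the fit with run nor the permutation test was repeated without CBD replicate 8.

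The pooled difference of miR-30c-2-3p depended on a few libraries in size but not in sign. Within runs 1 to 4 its difference was 0.54, 0.70, 0.45 and 0.80, a positive sign in 4 of 4 runs, as in 21 of 281 rows (7.47%). In runs 1 and 4 every CBD library lay above every vehicle library, while in runs 2 and 3 the groups overlapped. The positive sign in run 3 rests on CBD replicate 8. The other CBD library of that run, replicate 7 (7.58), lay below both vehicle libraries (7.66 and 8.29). CBD replicate 8 held the highest level, 9.28, and without it the difference was 0.50 (unadjusted p = 0.0107, limma adjusted p = 0.603). Vehicle replicate 7, with 8.29, held the highest of its group, and without it the difference was 0.74 (limma adjusted p = 0.204). Without the 3 libraries whose effective size was under 0.8 of the listed size (CBD replicates 6 and 8 and vehicle replicate 5), the difference was 0.40 (unadjusted p = 0.0367, limma adjusted p = 0.566). With array weights it was 0.58 at an adjusted p of 0.0179, 1 of 24 rows (8.54%) that passed in that fit. With array weights and the run term together it was 0.49 at an adjusted p of 0.0949, so the call was lost. The F-test of whether the CBD difference varied between runs gave miR-30c-2-3p an unadjusted p of 0.936 and a limma adjusted p of 0.993. In that test 0 of 8 members passed at an unadjusted p under 0.05, against 14 of 281 rows (4.98%), and 0 rows passed after adjustment.

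The other passenger arms had lower mean levels with CBD and did not pass. The level of miR-30e-3p with CBD was lowest at 5.46, with a median of 6.06 and a highest of 6.27, against 5.37, 6.37 and 7.05 with vehicle. Each of the 10 CBD libraries was below the vehicle mean, as in 7 of 281 rows (2.49%), and 6 of 10 vehicle libraries were above the highest CBD library, yet the lowest library was a vehicle one. The log2 difference of miR-30e-3p was -0.36 (SE 0.20, unadjusted p = 0.0861, limma adjusted p = 0.619), and -0.39 with the run term (unadjusted p = 0.0397, limma adjusted p = 0.306). Without CBD replicate 8, the lowest CBD library, it was -0.30 (unadjusted p = 0.145). It was -0.28 without vehicle replicate 2 and -0.47 without vehicle replicate 3 (unadjusted p = 0.167 and 0.0203). Without the 3 libraries whose effective size was under 0.8 of the listed size it was -0.23 (unadjusted p = 0.293). Within runs 1 to 4 it was -0.86, -0.01, -0.50 and -0.30, the same sign in 4 of 4 runs, as in 61 of 281 rows in either direction (21.7%). For miR-30a-3p, the near-identical arm, it was -0.13 (SE 0.21, limma adjusted p = 0.913), or -0.15 with run as a term, and in run 2 it was positive (0.13). Single libraries moved it from -0.03 (without CBD replicate 6) to -0.24 (without vehicle replicate 5), with -0.06, -0.07 and -0.19 without vehicle replicates 2, 1 and 3. For miR-30a-3p, 4 of 10 CBD libraries lay above the vehicle mean. Under other scalings miR-30e-3p ran from -0.44 (1 total per library) to -0.28 (median centring, limma unadjusted p = 0.195). In the same order, miR-30a-3p ran from -0.20 to -0.045, beside a median of -0.08 over all rows as deposited.

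The makeup of the 3p reads of the family showed the same directions. The share taken by miR-30c-2-3p was lowest at 54.7% with CBD, with a median of 60.8% and a highest of 84.9%, against 48.7% and 68.3% as median and highest with vehicle. In 7 of 10 vehicle libraries the share lay below that of every CBD library, and within runs 1 to 4 it was 19.7, 10.3, 9.74 and 18.4 percentage points higher with CBD. In run 3 this rests on CBD replicate 8, which held the 84.9%. The other CBD library of run 3, replicate 7, had 54.7%, below the vehicle mean of that run, 60.0%. In run 2 the groups overlapped and some libraries had few 3p reads. CBD replicates 4, 5 and 6 had 66.3%, 57.8% and 79.3%, the last from 92 3p reads. Vehicle replicates 3, 4 and 5 had 63.4%, 59.1% and 50%, the last from 46 3p reads. The share of miR-30c-2-3p does not depend on how libraries were scaled, and no test was made of it, since it is built from members already described.

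**Figure D3:**
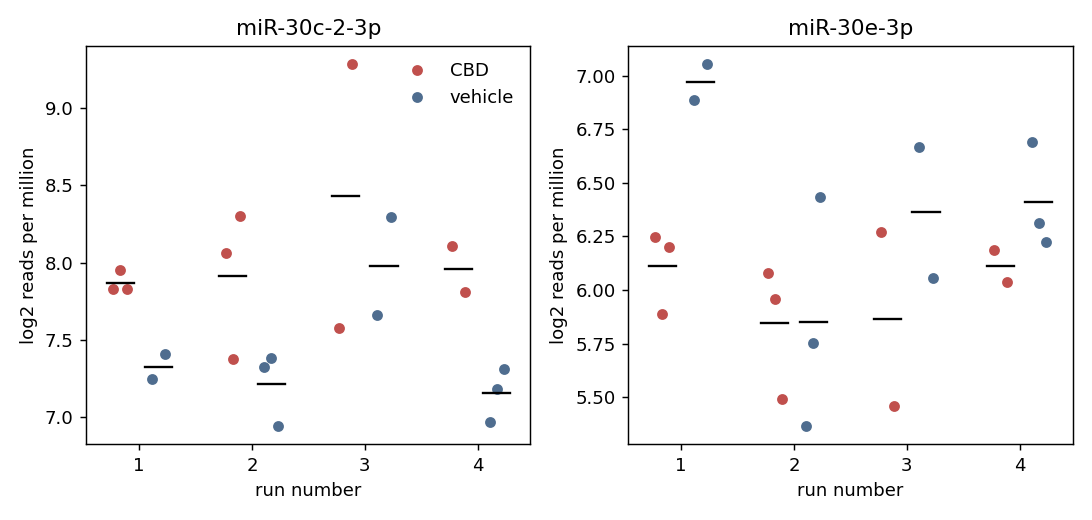
Log2 RPM of miR-30c-2-3p (left) and miR-30e-3p (right) in each library by run number, with CBD left of vehicle and the mean of each group as a line. The CBD mean is the higher one in 4 of 4 runs for miR-30c-2-3p and the lower one in 4 of 4 runs for miR-30e-3p. In run 3 the higher CBD mean of miR-30c-2-3p rests on CBD replicate 8.

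The guide arms had small differences of both signs. In the fits without array weights, 0 of 5 passed at an unadjusted p under 0.05 with or without the run term. The difference of miR-30a-5p was 0.20 (95% interval -0.30 to 0.71) and that of miR-30c-5p 0.13 (-0.32 to 0.58). Those of miR-30b-5p, miR-30d-5p and miR-30e-5p were -0.13 (-0.48 to 0.22), -0.18 (-0.64 to 0.29) and -0.24 (-0.83 to 0.34). These intervals leave room for changes of either sign, so equal levels were not shown. The limma adjusted p of the 5 rows was at least 0.847 in the fit of treatment alone. With array weights and the run term together, the difference of miR-30a-5p was 0.42 (unadjusted p = 0.00448, limma adjusted p = 0.0949). CBD replicate 8 had the lowest level of 4 of the 5 guides in its group, and without it the difference of miR-30c-5p was 0.27, of miR-30a-5p 0.28, of miR-30b-5p -0.03, of miR-30d-5p -0.03 and of miR-30e-5p -0.12. Other libraries moved these too. The difference of miR-30c-5p was 0.04 without vehicle replicate 2 and without CBD replicate 5, and 0.06 without CBD replicate 6. That of miR-30a-5p was 0.09 without CBD replicate 7, and 0.13 without CBD replicate 9 and without vehicle replicate 4. That of miR-30d-5p was -0.11 without vehicle replicate 3, and that of miR-30e-5p -0.13, -0.14 and -0.16 without CBD replicate 2, CBD replicate 4 and vehicle replicate 10. Within runs, 4 of the 5 guides had the same sign as the pooled difference in 2 of 4 runs, and miR-30a-5p in 3. For miR-30c-5p the difference was 0.59, 0.56, -0.33 and -0.33 in runs 1 to 4.

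The difference between arms was then compared between treatments, which does not depend on library scaling. Of the 3 miR-30 pairs 0 passed at an adjusted p under 0.05, as did 0 of all 76 pairs (0%), and at an unadjusted p under 0.05 there were 0, against 3 of 76 (3.95%). For miR-30c-5p minus miR-30c-2-3p the mean was 6.92 ± 1.02 in CBD mice and 7.43 ± 0.52 in vehicle mice (SD, n = 10 each). Its change was -0.51 (95% interval -1.22 to 0.20, limma adjusted p = 0.713), or -0.47 with the run term (adjusted p = 0.403). CBD replicate 8 lay far below the rest at 4.39, and without it the change was -0.23 (limma adjusted p = 0.863). For miR-30a the mean difference between arms was 6.66 ± 0.67 with CBD and 6.33 ± 0.67 with vehicle, a change of 0.33 (-0.29 to 0.95). It was 0.19 without vehicle replicate 2, and 0.62 with array weights and the run term (unadjusted p = 0.00238, limma adjusted p = 0.0988). For miR-30e it was 6.10 ± 0.75 and 5.97 ± 0.74, a change of 0.12 (-0.54 to 0.78), and it ranged from -0.02 without vehicle replicate 2 to 0.23 without CBD replicate 4. A CBD difference of miR-30c-2-3p unlike that of its guide was thus not shown.

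**Figure D4:**
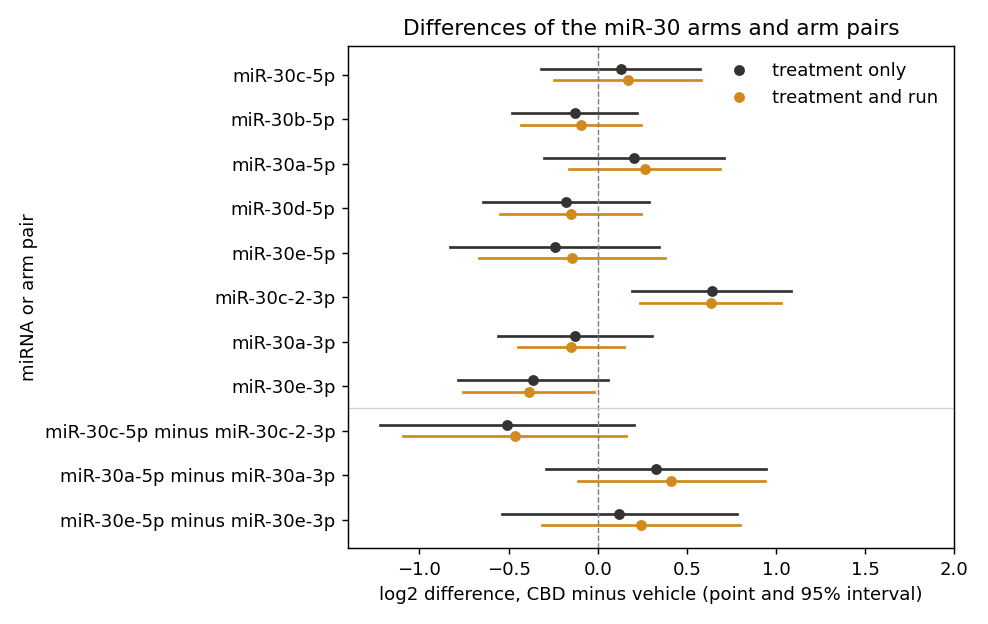
Log2 difference, CBD minus vehicle, with its 95% interval, for the 8 miR-30 rows and the 3 arm pairs, from the fit with treatment only and from the fit with treatment and run. Before adjustment over the 281 rows, the interval of miR-30c-2-3p lies above 0 in both fits and that of miR-30e-3p below 0 in the fit with run only.

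Between runs the levels of both miR-30a arms differed, and both had their lowest mean in run 2. In the fit with treatment and run, 2 of 8 members differed between runs at a limma adjusted p under 0.05, against 135 of 281 rows (48.0%). The passenger miR-30a-3p had mean levels of 6.66, 5.73, 6.32 and 6.43 in runs 1 to 4 (adjusted p = 0.00567) and passed in each of the 20 fits that left out 1 library. Its guide miR-30a-5p had 12.51, 12.40, 13.20 and 13.06 (adjusted p = 0.0440), higher in runs 3 and 4. That call was kept in 4 of 20 fits, those without CBD replicate 3, 5, 6 or 8, and in the other 16 the adjusted p was up to 0.0880. Without CBD replicate 8 there were 4 members past the threshold, with miR-30d-5p (adjusted p = 0.0227) and miR-30e-5p (adjusted p = 0.0144) added. The level of miR-30c-2-3p in runs 1 to 4 was 7.65, 7.57, 8.20 and 7.48 (adjusted p = 0.128), and 0.530 was the adjusted p without CBD replicate 8.

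The difference between arms passed the test between runs for miR-30e only, and that call was not stable. For miR-30e the 5p arm exceeded the 3p arm by 5.30, 6.16, 6.23 and 6.46 log2 units in runs 1 to 4 (limma adjusted p = 0.0494), and this was 1 of 3 miR-30 pairs past the threshold, against 34 of 76 pairs (44.7%). The call for miR-30e was kept in 7 of 20 fits that left out 1 library, those without CBD replicate 3, 4, 6, 8 or 10 or vehicle replicate 4 or 8, and elsewhere the adjusted p was up to 0.161. It was also lost without the treatment term and with no trend of the variance (adjusted p = 0.0564 and 0.0559). For miR-30a the difference was 5.85, 6.67, 6.89 and 6.63 (adjusted p = 0.0616, or 0.0136 without CBD replicate 8), and for miR-30c 6.94, 7.62, 6.46 and 7.47 (adjusted p = 0.0972, or 0.227 without it). In both miR-30a and miR-30e, run 1 had the smallest difference. What the run number stands for is not stated in the labels or headers.

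**Figure D5:**
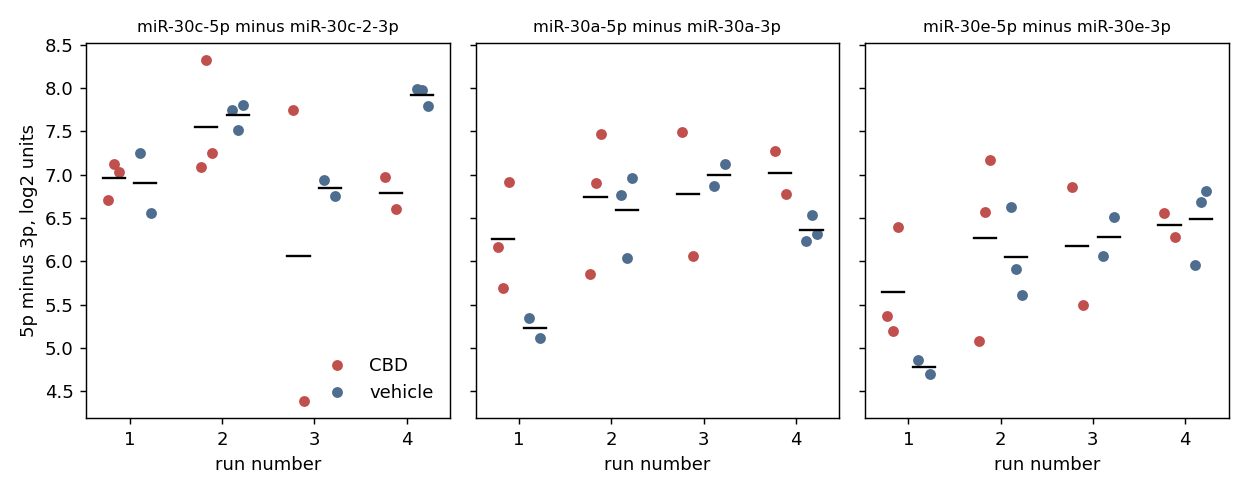
Difference 5p minus 3p in log2 units in each library by run number for the 3 miR-30 pairs, with CBD left of vehicle and the mean of each group as a line. Run 1 holds the smallest mean difference for miR-30a and miR-30e, and CBD replicate 8 in run 3 the smallest value for miR-30c.

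The guides varied together between libraries. After the mean of each run, but not treatment, was removed, the 10 pairs of 5p rows had a Pearson r between 0.64 and 0.88. Their median was 0.74 over 20 libraries. Over all 39340 pairs of rows the median was 0.01 and the 90th percentile 0.51. Without CBD replicate 8 the r of the 5p pairs lay between 0.38 and 0.80 with a median of 0.53, beside a 90th percentile of 0.51 over all pairs. The rows share a library and its scaling, and miR-30a-5p and miR-30e-5p may share reads. The 15 pairs of a 5p and a 3p row had an r between -0.49 and 0.29 with a median of -0.06, or between -0.54 and 0.36 without CBD replicate 8. The lowest of them were those of miR-30c-2-3p with miR-30e-5p (-0.49), miR-30d-5p (-0.47) and miR-30b-5p (-0.42), beside a 10th percentile of -0.45 over all pairs of rows. The passengers miR-30c-2-3p and miR-30e-3p varied in opposite directions, with r = -0.70, or -0.59 without CBD replicate 8. The opposite CBD differences of these rows (0.63 and -0.39 with the run term) are part of this r. An r with treatment removed was not computed. The arms of a single pair were compared in the same way for all 76 pairs. For miR-30c the r was -0.19 and Spearman's rho -0.01, with permutation p of 0.572 and 0.981 (adjusted p = 0.727 and 0.996 over 76 pairs), and r was 0.33 without the 2 libraries farthest from the median of the 5p arm. For miR-30a the r was -0.26 and rho -0.39 (permutation p = 0.269 and 0.116, adjusted p = 0.455 and 0.349), and -0.41 without the 2 farthest. For miR-30e the r was 0.29 and rho 0.24 (permutation p = 0.319 and 0.365, adjusted p = 0.505 and 0.598), and 0.16 without the 2 farthest. Over all 76 pairs the median r was 0.14, and 7 pairs (9.21%) passed at an adjusted p under 0.05.

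Outside the family, the rows whose run-centred levels were most like miR-30c-2-3p were miR-1843b-5p (r = 0.80), miR-1839-5p (0.77), miR-1843a-5p (0.76), miR-540-3p (0.76) and miR-676-3p (0.75) over 20 libraries. Without CBD replicate 8 these r were 0.66, 0.63, 0.63, 0.59 and 0.57. Their log2 differences with CBD were 0.21, 0.45, 0.33, 0.44 and 0.37, with unadjusted p of at least 0.0568. Treatment was not removed before the rows were picked. Their positive differences are thus partly built in by the choice and are no separate result. The rows most like the summed 5p arms were miR-22-3p (r = 0.90), miR-188-5p (0.84), miR-153-5p (0.81), miR-411-5p (0.81) and miR-301a-3p (0.79). Without CBD replicate 8 these r were 0.82, 0.68, 0.66, 0.82 and 0.56, in the same order. These were picked as the highest of all rows, so the values describe them and carry no test.

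The seed-sharing miR-384-5p, encoded on the X chromosome, was less abundant than any miR-30 guide on the same scale. Its level was 8.58 ± 0.59 in CBD mice and 8.85 ± 0.71 in vehicle mice (SD, n = 10 each), a log2 difference of -0.27 (95% interval -0.85 to 0.30, limma adjusted p = 0.831).

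Marker miRNAs of other cells were set beside these values. Of the 4 listed blood vessel markers, 4 were measured and 4 were lower with CBD, with a summed level of 3144 to 5698 RPM with CBD and 3353 to 8931 with vehicle. The median log2 difference of the vessel markers was -0.53, with 2 of 4 under 0.05 before adjustment. Of the 4 listed oligodendrocyte markers, 4 were measured and 4 were lower, with 899 to 3250 with CBD and 1014 to 6345 with vehicle. For the oligodendrocyte markers the median was -0.55, with 1 of 4 under 0.05 before adjustment. Over all 281 rows, 173 were lower with CBD and 22 (7.83%) were under 0.05 before adjustment. The vessel list holds both arms of miR-126a, and the oligodendrocyte list both arms of miR-219a and of miR-338. The markers within these lists are thus not independent. Of the 5 listed microglial and immune markers 2 were measured and both were lower, with 2955 to 19845 with CBD and 2447 to 24588 with vehicle. Of the 5 markers of ependyma and choroid plexus 3 were measured, 2 higher and 1 lower, with 5570 to 23419 with CBD and 4200 to 34089 with vehicle. Of the 3 red blood cell markers 0 were rows of the table. The median log2 difference was -0.29 for the immune list, 0.16 for the ependymal list and 0.06 for the neuronal list, with 0 markers at an unadjusted p under 0.05. Over the 20 libraries the run-centred r of the log2 summed level with miR-30c-2-3p was 0.42 for neurons, -0.32 for vessels, -0.26 for oligodendrocytes, 0.12 for ependyma and -0.06 for immune cells. CBD replicate 8 is part of each of these r, and values without it are not given. The ranges overlapped between groups for each measured list, and the part of these cells in the values of miR-30c-2-3p and miR-30e-3p was not tested.

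In the authors' deposited table of the comparison, miR-30c-2-3p has a log2 fold change of 0.63 with an adjusted p of 0.0835 and is number 10 of 281 by p. The authors' deposited table gives miR-30e-3p a log2 fold change of -0.40 with an adjusted p of 0.210, at number 45. The authors' deposited short table of 66 rows holds these 2 members, while 23.5% of all rows are in it. For the other 6 members the authors' deposited table has adjusted p of at least 0.439.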

How the data were processed

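Per the labels' protocols, RNA came from a Trizol extraction, and the TruSeq small RNA libraries were purified by Pippin Prep. The submitters' processing notes name the build mm10 and the tools edgeR and limma, with no version or role. No source used here names the aligner, counter or miRNA catalogue. The authors deposited log2 values for 281 miRNAs, and each value, taken as log2((n + 0.5) / (L + 1) × 1000000) for an effective library L, returned a whole number of reads n within 0.001 reads. Per the file headers, other deposited tables give library size and run, and log2 fold changes with p-values, a t score and a fold ratio, which was not used.

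The log2 values were fitted with limma 3.58.1 in R 4.3.3, with treatment alone in the model and the prior variance following the mean level. Tests are two-sided, with Benjamini-Hochberg adjustment over all 281 rows or all 76 arm pairs and a threshold of 0.05. Arm pairs were fitted as 5p minus 3p within a library, with the trend on the mean level of both arms. Run differences are F-tests in a fit with treatment and run. The statistics were tested on simulated data. Correlations between arms used 100000 permutations within runs, in Python 3.11.15.

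Every member is reported. Rows outside the family were named if they share a 5p seed, are among the 5 most like miR-30c-2-3p or the summed 5p arms, or are listed cell markers. The members and lists were chosen with earlier results of these data known. Alternatives were the run term, other scalings, weights, a filter at 100 RPM, permutation within runs, and leaving out libraries or runs. The count models edgeR and DESeq2 were not run; the recovered reads entered only through voom weights.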

Additional observations from a re-analysis of the deposited data

Results flagged for a closer look

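Of 22 groups of 10 libraries examined (8 rows and 3 arm pairs in each treatment), 3 had a library whose gap to its nearest neighbour was large for the range of its group, and chance alone flags about 1 in 20 such groups. In each of them the library was CBD replicate 8. The level of miR-30c-2-3p there was 9.28, against 8.30 in the next library of its group. The level of miR-30b-5p there was 11.98, against 12.63 in the next. The difference miR-30c-5p minus miR-30c-2-3p there was 4.39 log2 units, against 6.60 in the next. These 3 values share a library and are not independent.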

How the results depend on the processing

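No paired analysis was possible because the labels give mouse numbers that no 2 groups share. For CBD minus vehicle, 0 members passed under each alternative run except array weights, where 1 passed (miR-30c-2-3p; 0 with the run term added), and 0 to 0 passed in the 20 fits that left out 1 library each. The difference of miR-30c-2-3p stayed positive, from 0.40 to 0.72 over 15 alternatives and from 0.50 to 0.74 when a library was left out; leaving out run 4 gave an unadjusted p of 0.0605. Signs turned for miR-30b-5p with array weights and the run term (0.017), for miR-30c-5p without run 2 (-0.055), and for the miR-30e arm pair, which was -0.0016 and -0.0204 without vehicle replicates 1 and 2 and ranged up to 0.23 over the libraries left out. For arm pairs 0 passed under each alternative, and 0 to 0 with a library left out. The count of members differing between runs was 2, with 1 to 4 when a library was left out and 1 without the treatment term. With quantile normalisation the count of members was 3, with miR-30e-5p added (limma adjusted p = 0.0340). The count of arm pairs differing between runs was 1, with 0 to 2 when a library was left out, 0 without the treatment term and 0 with no trend of the variance. Depth limits the 3p rows most, with 7 to 146 reads for miR-30a-3p and miR-30e-3p. The filter at a mean of 100 RPM leaves out miR-30a-3p and miR-30e-3p and so gives no value for them or their pairs. The edgeR and DESeq2 alternatives were not run. The libraries without which a run call changed are named with it above, except that miR-30d-5p also passed without CBD replicate 2, 3 or 7 or vehicle replicate 4, miR-30e-5p without CBD replicate 3, miR-30c-2-3p and the miR-30c pair without CBD replicate 7, and the miR-30a pair without CBD replicate 3 or 4. The alternatives with voom weights and without the 3 libraries of lowest effective size were chosen after seeing the data.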
